A study of Mus musculus with 6 samples.

Results

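The 9 genes examined here follow secretory IgA from the plasma cell to the gut lumen: the IgA and IgM heavy chains (Igha, Ighm), the joining chain (Jchain), 5 genes of B and plasma cells (Mzb1, Pou2af1, Cd79a, Cd79b, Blnk) and the epithelial receptor that carries IgA across (Pigr). They were taken as every probe set of the deposited table that the platform annotation gives to a single one of these symbols. All 9 genes had such a probe set, 22 probe sets in all, out of 18193 genes on the array under a single symbol. Values came from 6 Affymetrix arrays, 1 per mouse, hybridised with total RNA of intestinal epithelial cell preparations. The 3 mice called deficient carried a floxed Pggt1b gene (Pggt-Ibeta in the labels), the gene for the beta subunit of GGTase-I, an enzyme that adds prenyl lipids to proteins, together with VillincreERT2, a tamoxifen-inducible recombinase under the epithelial Villin promoter. The 3 control mice carried the floxed gene without VillincreERT2. All 6 mice were of mixed 129/SV and C57BL/6 background, all received 1 mg tamoxifen on each of 3 days, and the epithelial cells were taken on day 6. The sources used here give no gut segment, sex or age, and the effect of the recombinase itself cannot be told apart from that of the deletion.

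Plasma cells of the gut wall make IgA from heavy and light chains, and the J chain links such units into the polymeric form. The polymeric immunoglobulin receptor, made by epithelial cells from Pigr, binds J chain-containing IgA at the basal side, is carried through the cell and is cleaved at the lumen. IgM is the antibody class that B cells make first, and Cd79a, Cd79b and Blnk belong to the signalling path of the B cell antigen receptor. Pou2af1 is a coactivator that works with octamer-binding factors, and Mzb1 is an endoplasmic reticulum protein that helps antibody secretion.

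Among the members that could be tested, sequences of the start regions were available for Jchain, Blnk and Pigr, which are shown, and not for Igha and Ighm. Each line gives the 250 bases before the annotated start, from RefSeq with build GRCm38.p6, on the strand of the gene. Jchain lies on the minus strand (chr5:88527898-88528147), Blnk on the minus strand (chr19:40994222-40994471) and Pigr on the plus strand (chr1:130826434-130826683). Capitals mark matches to any of 3 motifs, searched on both strands: the octamer ATGCAAAT, the E-box CACGTG and the interferon response core AANNGAAA.
Jchain: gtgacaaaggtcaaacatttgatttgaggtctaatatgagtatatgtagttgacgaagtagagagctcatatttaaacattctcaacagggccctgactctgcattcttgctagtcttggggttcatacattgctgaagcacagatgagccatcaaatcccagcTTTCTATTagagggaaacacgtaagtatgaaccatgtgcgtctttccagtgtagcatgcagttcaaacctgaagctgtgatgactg
Blnk: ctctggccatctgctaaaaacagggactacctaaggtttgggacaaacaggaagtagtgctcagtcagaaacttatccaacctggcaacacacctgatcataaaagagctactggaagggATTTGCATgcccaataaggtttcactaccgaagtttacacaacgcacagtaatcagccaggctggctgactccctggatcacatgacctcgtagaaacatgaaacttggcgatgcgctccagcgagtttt
Pigr: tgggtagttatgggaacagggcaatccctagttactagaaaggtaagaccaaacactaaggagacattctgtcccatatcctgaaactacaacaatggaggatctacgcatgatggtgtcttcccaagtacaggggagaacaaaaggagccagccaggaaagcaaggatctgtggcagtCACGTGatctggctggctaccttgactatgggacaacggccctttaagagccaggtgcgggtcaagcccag
The Blnk window held the octamer, on the other strand, with its first base at position -130 from the start. The Pigr window held the E-box, letters that the factors Usf1 and Usf2 are known to bind, at position -71. The Jchain window held the interferon response core, on the other strand, at position -86. The windows of Pou2af1 and Cd79a, members that could not be tested, were searched too and held none of the 3 motifs. Of 32851 start regions of the same length, 1.60% held the octamer, 6.02% the E-box and 21.3% the interferon response core. The motifs were chosen after these windows were read, so the matches are a description, and no overlap between motifs occurred in the 3 windows.

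The values are log2 expression values made by the authors, and a probe set was tested where it lay above 5 (log2) on at least 3 arrays. The targeted gene did not check the labels: the Pggt1b probe set with the highest mean read 9.75, 8.88 and 8.83 in deficient replicates 1, 2 and 3, against 9.30, 9.55 and 9.32 in control replicates 1, 2 and 3 (limma adjusted p = 0.678). The sources used here do not place it relative to the deleted part, and every direction below is that of the labels. All 12 epithelial markers examined, Epcam, Cdh1 and Vil1 among them, were tested, with mean levels of 13.8 to 14.1 in the deficient arrays and 13.6 to 13.8 in the control arrays. Of 8893 genes tested with limma, 176 (1.98%) were called lower and 10 (0.112%) higher in the deficient arrays at an adjusted p under 0.05. In such bulk preparations, fewer cells of a type and less RNA per cell cannot be told apart.

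The probe sets of Igha and Jchain lay above 5 on every array and read lower in every deficient array than in any control array. Groups apart in this direction were found in 16.7% of the genes tested, and limma called neither gene. Of the 9 members, 5 could be tested as genes: Igha, Ighm, Jchain, Blnk and Pigr. Of these, 0 were called by limma, against 2.09% of all genes tested, and 3 had an unadjusted p under 0.05, against 16.9% of all genes tested. The 3 were Igha and Jchain, lower in the deficient arrays, and Blnk, higher. By mean 3 of the 5 were lower and 2 higher, with a median log2 change of -0.57, beside -0.04 over all genes tested.

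The IgA heavy chain gene Igha, which encodes the constant region of IgA, had 3 probe sets, all above 5 on all 6 arrays. The probe set 1421653_a_at read 11.9, 11.1 and 11.9 in deficient replicates 1, 2 and 3, against 12.4, 13.5 and 12.3 in control replicates 1, 2 and 3. The groups did not overlap, with deficient replicate 2 lowest and control replicate 2 highest. Means were 11.6 ± 0.47 in deficient and 12.7 ± 0.66 in control arrays (SD, n = 3 each), a log2 change of -1.08 ± 0.38 (SE), or 2.12-fold lower, with a limma adjusted p of 0.236. Groups that do not overlap, in the lower direction, were found in 16.7% of the genes tested. Without control replicate 2 the change was -0.70.

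The other probe sets of Igha gave the same picture. The set 1425763_x_at read 10.1, 9.33 and 10.2 in the deficient arrays, against 10.6, 11.9 and 10.6 in the control arrays. Its change was -1.14 ± 0.43 (SE, limma over all probe sets, adjusted p = 0.264), and -0.70 without control replicate 2. The set 1429381_x_at read 8.87, 8.50 and 8.93 in the deficient arrays, against 9.76, 11.0 and 9.80 in the control arrays, a change of -1.41 ± 0.35 (SE, adjusted p = 0.149). These 3 probe sets report 1 gene and are not independent of each other, and designs ending in _x_at can match several transcripts.

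The joining chain, Jchain, which holds polymeric IgA and IgM together and is needed for binding to the receptor, had 1 probe set. It read 8.61, 7.59 and 9.35 in deficient replicates 1, 2 and 3, against 9.58, 10.8 and 10.0 in control replicates 1, 2 and 3. Again the groups did not overlap, and the same arrays stood at the ends, deficient replicate 2 lowest and control replicate 2 highest. Means were 8.51 ± 0.88 and 10.1 ± 0.63 (deficient and control, SD, n = 3 each). The log2 change was -1.62 ± 0.50 (SE), or 3.08-fold lower, with an interval from -2.80 to -0.45 at 95% and a limma adjusted p of 0.192. Of the genes tested, 2.58% had a lower change. Leaving out 1 array at a time moved the Jchain change between -2.04 and -1.16.

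**Figure D1:**
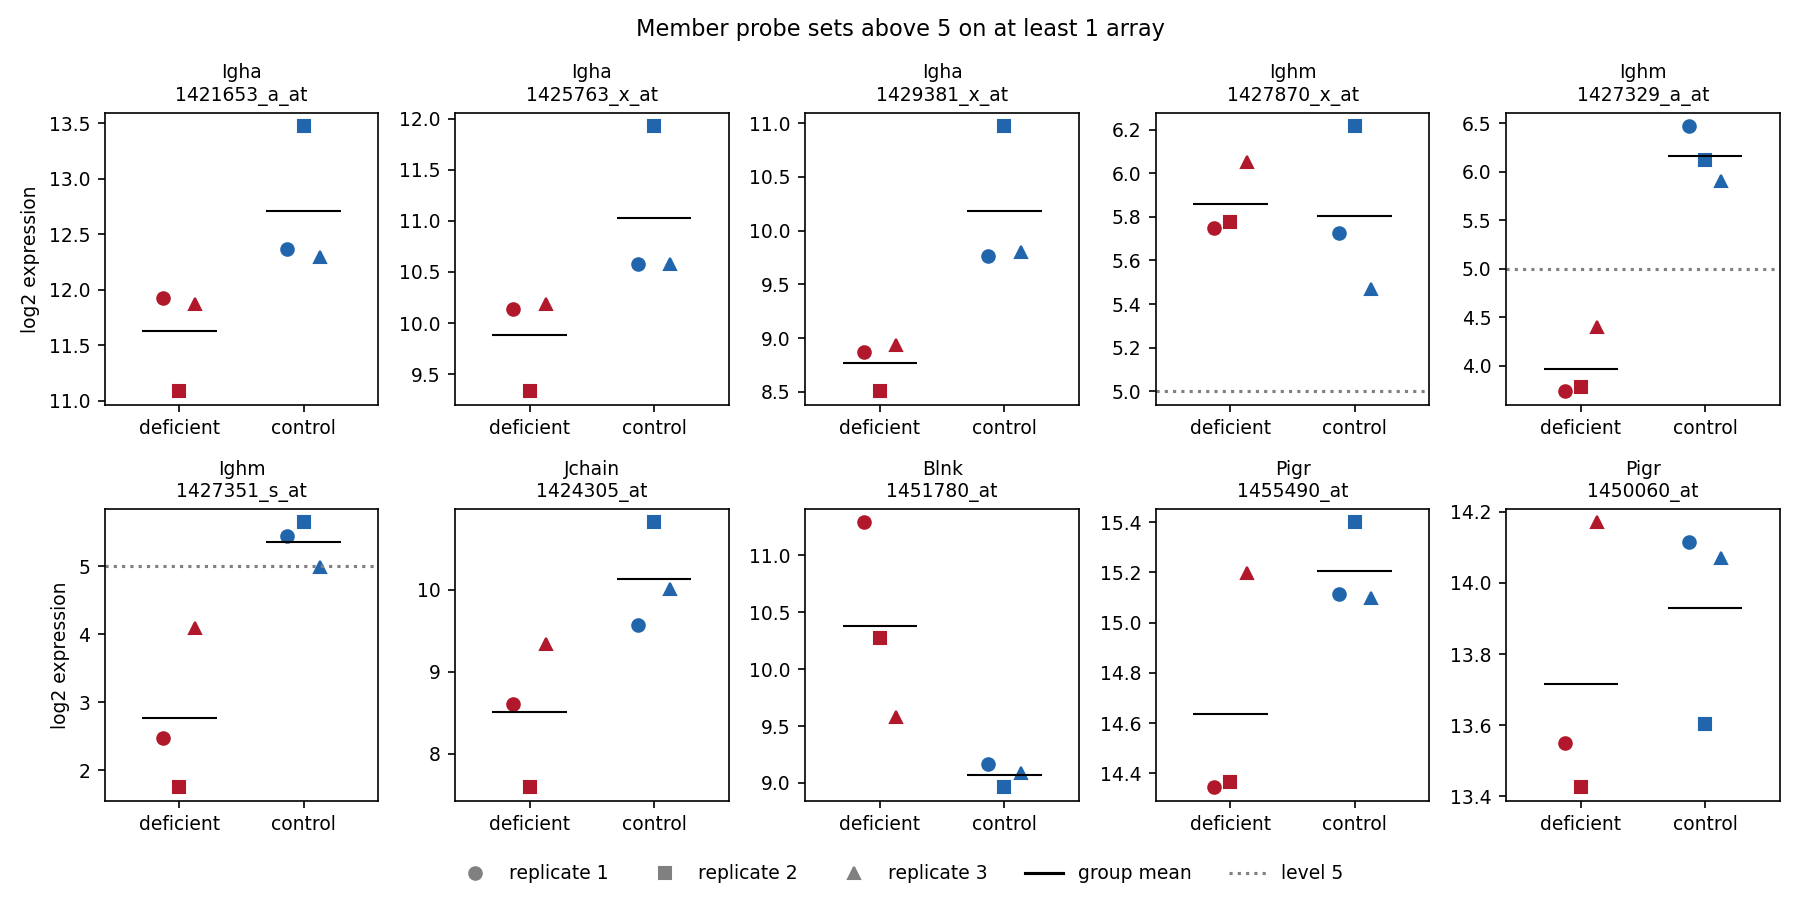
Log2 expression of the 10 member probe sets that lay above 5 on at least 1 array, by group. Points are single arrays, shaped by replicate number, black bars are group means and the dotted line marks the level 5. Axes differ between panels and do not start at 0. Every deficient array lies below every control array in the 3 panels of Igha in that of Jchain and in those of the Ighm sets 1427329_a_at and 1427351_s_at, where all deficient arrays and, in the last, control replicate 3 lie under 5, and above in that of Blnk.

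IgA also needs light chains, and the kappa chain probe sets, examined after the members' values had been seen, also lay lower in the deficient arrays. Of 42 further immunoglobulin probe sets, single symbol or several, 5 lay above 5 on at least 3 arrays: 4 of kappa and 1 of lambda chains. The 4 kappa probe sets were lower in every deficient array than in any control array, with differences of means from -1.54 to -1.01. Of all probe sets tested, 14.5% had groups that did not overlap in this direction. Of these 4, 1 carried a single symbol, Igkv8-30, a kappa variable segment. It read 7.43, 8.15 and 8.61 in the deficient arrays, against 8.75, 9.54 and 8.93 in the control arrays (log2 change -1.01, limma over all probe sets, adjusted p = 0.242). The other kappa sets share several symbols with each other and can report the same transcripts. The lambda probe set of Iglv1 overlapped between groups, at 3.63, 6.51 and 6.28 in deficient and 6.57, 5.71 and 5.24 in control arrays.

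Set side by side, the 3 probe sets of Igha, the 1 of Jchain and the 4 of kappa chains ranked the arrays alike at the top. Control replicate 2 was highest in 8 of 8, and the lowest array was deficient replicate 2 in 6 and deficient replicate 1 in 2. The distance from the highest deficient to the lowest control array was small, between 0.03 and 0.83 on the log2 scale. Relative to the control means, deficient replicate 3 stood between -1.25 and -0.46, while control replicates 1 and 3 stood between -0.61 and -0.04. Without control replicate 2 the 8 differences of means ran from -1.28 to -0.70, against -1.62 to -1.01 with it.

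**Figure D2:**
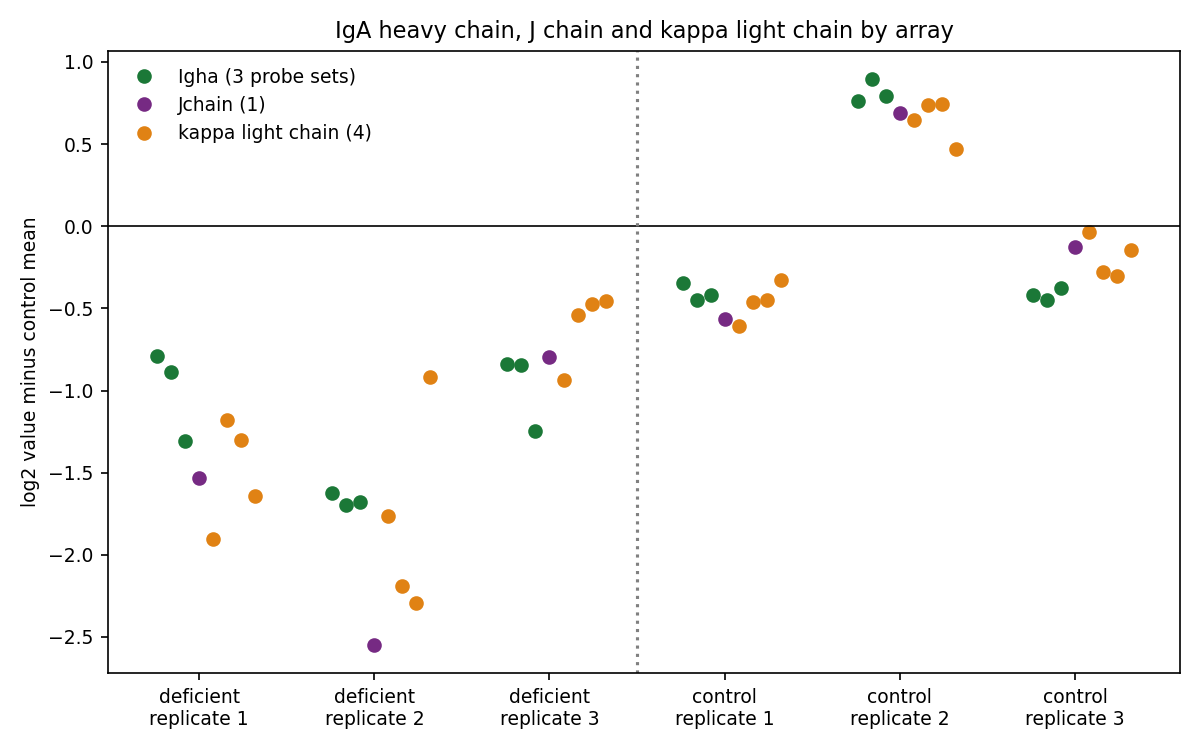
Log2 values of the IgA heavy chain, J chain and kappa light chain probe sets minus their control means, by array. Each point is 1 probe set. Control replicate 2 stands above the 0 line in all 8, and deficient replicates 1 and 2 hold the lowest points.

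The IgM heavy chain, Ighm, gave different answers from different probe sets. Of its 11 single-symbol probe sets, 8 lay at or below 5 on all arrays, between 1.96 and 3.75, and so did 4 further sets that list Ighm among several symbols. The probe set with the highest mean, 1427870_x_at, read 5.75, 5.77 and 6.05 in the deficient arrays, against 5.72, 6.22 and 5.47 in the control arrays. These values overlapped, and the log2 change was 0.05 ± 0.23 (SE), with an interval from -0.49 to 0.60 at 95% (limma adjusted p = 0.918).

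The set 1427329_a_at of Ighm was the 1 of 9 tested member probe sets called in the limma fit over all 14478 probe sets tested, of which 1.47% were called and 1.38% were called lower. It read 3.73, 3.78 and 4.40 in the deficient arrays, all under 5, against 6.47, 6.12 and 5.91 in the control arrays. Set against the level 5 it fell at least 2.24-fold (log2 change of the fit -2.19 ± 0.25, SE, limma adjusted p = 0.00882). Since it passed the filter through its control arrays alone, its groups had to be apart. The call was lost without deficient replicate 2 (adjusted p = 0.0555).

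A further Ighm probe set, 1427351_s_at, lay above 5 on 2 arrays and was not tested. It read 2.47, 1.75 and 4.10 in the deficient arrays, against 5.45, 5.65 and 4.99 in the control arrays, so 2 control arrays and 0 deficient arrays exceeded 5. The annotation used here does not say which part of the heavy chain locus each probe set reads, and sets ending in _x_at or _s_at can match related transcripts.

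The remaining plasma and B cell members were not measurable. Cd79a and Cd79b, the signalling subunits of the B cell antigen receptor, Pou2af1 and Mzb1 lay at or below 5 on all 6 arrays. Their values ran from 1.94 to 1.99 for Cd79a, from 2.44 to 3.26 for Cd79b, from 2.95 to 3.32 for Pou2af1 and from 2.24 to 2.88 for Mzb1. Values so low have no order, and no change can be read from them. The same held for most other markers of B cells: 14 of 19 B cell identity genes lay at or below 5 on all arrays, among them Pax5 and Ebf1, transcription factors that set B cell fate, and Cr2 and Cd22. Ms4a1, the B cell surface marker CD20, exceeded 5 on 1 array, control replicate 1, at 5.48. The 2 tested genes of that list were Ly6d, a surface protein that epithelia also express, which rose at least 2.38-fold (limma adjusted p = 0.0279), and Bach2, a repressor in B cells, at -0.66 (adjusted p = 0.346). Ly6d passed the filter on low values through its deficient arrays alone, so its groups had to differ. It passed the test in 3 of 6 fits that left out 1 array, with an adjusted p of up to 0.124.

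Blnk, the adaptor that links the B cell antigen receptor to downstream enzymes and is also made in some myeloid cells, read higher in the deficient arrays. It read 11.3, 10.3 and 9.58 in deficient replicates 1, 2 and 3, against 9.17, 8.96 and 9.09 in control replicates 1, 2 and 3. Every deficient array lay above every control array, with deficient replicate 1 highest, a separation in the higher direction that 9% of the genes tested also had. Means were 10.4 ± 0.86 in deficient and 9.07 ± 0.11 in control arrays (SD, n = 3 each). The log2 change was 1.31 ± 0.41 (SE), or 2.48-fold higher, with an interval from 0.35 to 2.27 at 95% and a limma adjusted p of 0.197. Of the genes tested, 0.877% had a higher change. Without deficient replicate 1 the change was 0.85, and without deficient replicate 3 it was 1.71 (adjusted p = 0.059).

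Blnk was thus measured at these levels on arrays where Cd79a, Cd79b and most B cell identity genes were at or below 5. Of 11 tested genes of B cell antigen receptor signalling, 2 were called lower and 0 higher, beside 1.98% and 0.112% of all genes tested, with a median log2 change of -0.42. Both called genes passed the filter through their control arrays alone, so their groups had to differ, and the count supports nothing about the list. Prkcb, a protein kinase C that is also used in other leukocytes, fell at least 4.42-fold (4.92, 4.95 and 4.47 in deficient, against 7.23, 7.04 and 7.17 in control arrays, limma adjusted p = 0.00166). Bank1, a B cell scaffold protein, fell at least 1.50-fold (limma adjusted p = 0.0279) and passed in 1 of 6 fits that left out 1 array, with an adjusted p of up to 0.126. The kinase Syk and the phospholipase Plcg2, partners of Blnk named after their values were seen, changed by 0.08 and -0.23 (limma adjusted p = 0.954 and 0.624).

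Pigr, the epithelial receptor for polymeric IgA and IgM, had 2 probe sets, both high on all arrays. The set 1455490_at read 14.3, 14.4 and 15.2 in deficient replicates 1, 2 and 3, against 15.1, 15.4 and 15.1 in control replicates 1, 2 and 3. Deficient replicates 1 and 2 lay below all controls, while deficient replicate 3 lay among them. Means were 14.6 ± 0.49 and 15.2 ± 0.17 (deficient and control, SD, n = 3 each). The log2 change was -0.57 ± 0.27 (SE), with an interval from -1.20 to 0.06 at 95% and a limma adjusted p of 0.329. The set 1450060_at read 13.6, 13.4 and 14.2 in the deficient arrays, against 14.1, 13.6 and 14.1 in the control arrays. Its groups overlapped as well, with a change of -0.22 ± 0.26 (SE, interval from -0.83 to 0.40, limma over all probe sets, adjusted p = 0.695).

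**Figure D3:**
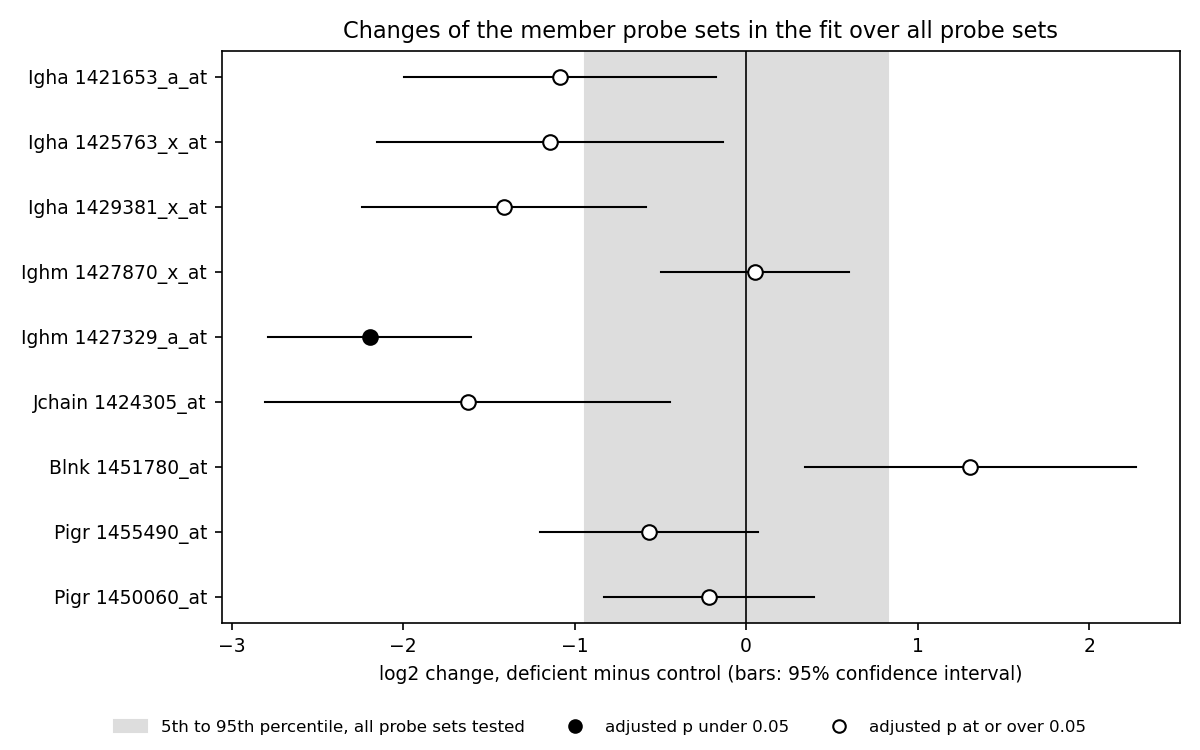
Log2 change, deficient minus control, of the 9 member probe sets tested, from the limma fit over all probe sets, with 95% confidence intervals. Filled points passed an adjusted p under 0.05, and the grey band spans the 5th to 95th percentile of all probe sets tested, from -0.94 to 0.83. The 1 filled point is an Ighm probe set at -2.19.

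Genes known to set Pigr transcription or to move the receptor through the cell gave no calls. Of 16 tested transcription inputs, such as NF-kB subunits and cytokine receptors, 0 were called and 0 had an unadjusted p under 0.05 in the limma fit, with a median change of -0.19. Those with the smallest p were Il17rc, a subunit of the interleukin-17 receptor, at -0.48, and Nfkb2 at -0.23 (limma adjusted p = 0.382 and 0.455). Of 19 tested genes of transcytosis, 0 were called and 2 had an unadjusted p under 0.05, beside 16.9% of all genes tested, with a median of 0.19. Rab11a, a recycling endosome GTPase, was at 0.77 ± 0.21 and Rab17, an epithelial Rab of transcytosis, at -0.89 ± 0.27 (SE, limma adjusted p = 0.154 and 0.185). Neither overlapped between groups, as was so for 9% of all genes tested in the higher and 16.7% in the lower direction: Rab11a read 13.1, 12.7 and 12.6 in deficient against 11.9, 11.9 and 12.3 in control arrays, and Rab17 read 10.3, 10.2 and 11.1 against 11.5, 11.4 and 11.4. Of the 19 genes, 6 did not overlap in the higher and 2 in the lower direction, Rab11a and Rab17 included.

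Genes of plasma cell identity that could be tested are also expressed by other cells. Of 9 tested plasma cell identity genes, 2 were called lower, beside 1.98% of all genes tested, and 0 higher, with a median change of -0.24. Ccr9, a receptor that homes plasma cells and also T cells to the small intestine, fell 5.89-fold (5.28, 5.44 and 6.17 in deficient, against 7.99, 8.43 and 8.16 in control arrays, limma adjusted p = 0.00461). Its probe set is of the _x_at design. Cxcr4, a chemokine receptor of many leukocytes, fell at least 1.53-fold (limma adjusted p = 0.0327), was above 5 in its control arrays alone, so that its groups had to differ, and passed in 1 of 6 fits that left out 1 array (adjusted p up to 0.156). Sdc1 and Xbp1, which plasma cells and epithelium both express, changed by 0.13 and 0.05 (limma adjusted p = 0.808 and 0.89, named after their values were seen). Prdm1, also named after its values were seen, was higher by mean at 1.01 ± 0.45 (SE, limma adjusted p = 0.316). By mean 3 of the 9 tested genes were higher and 6 lower. Irf4, Tnfrsf17 and Derl3 were among 8 genes of this list at or below 5 on all arrays. Of 17 tested genes of the secretory machinery, limma called 0, and 0 had an unadjusted p under 0.05, beside 16.9% of all genes tested. The median was 0.19, with Edem1 at 0.37 and Pdia6 at 0.53 (limma adjusted p = 0.329 and 0.382).

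Signals for IgA switching, plasma cell survival and homing could be tested for 5 of 16 genes on the array. Limma called 0, and 1 had an unadjusted p under 0.05, beside 16.9% of all genes tested, with a median of -0.11. Aldh1a1, which makes retinoic acid, was at -1.00 ± 0.29, and Ccl25, the ligand of Ccr9, at -0.56 ± 0.32 (SE, limma adjusted p = 0.181 and 0.413). Ccl28, an epithelial chemokine that draws IgA plasma cells, was at 0.21, and Tnfsf13b, the survival factor BAFF, at -0.11 (named after their values were seen). Of 6 tested markers of the epithelium over lymphoid follicles, 0 were called in the limma fit. An unadjusted p under 0.05 was found for 1, again beside 16.9% of all genes tested. The markers with the smallest p were Anxa5 at 1.80 and Marcksl1 at 1.01 (limma adjusted p = 0.189 and 0.408), and the list median was 0.34. By mean 4 were higher and 2 lower. The lower ones, named after their values were seen, were Tnfaip2 at -1.06 and Ccl9 at -0.16 (limma adjusted p = 0.479 and 0.872).

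Markers of T cells and of myeloid cells were lower by mean in the same deficient arrays, though not all of them were called. All 13 tested T cell and intraepithelial lymphocyte markers were lower by mean, with groups that did not overlap. Such groups, in the lower direction, were found in 16.7% of all genes tested. Limma did not call Cd3e at -1.51 and Gzma at -2.99 (adjusted p = 0.0809 and 0.0507). The other 11 were called lower, beside 1.98% of all genes tested: Il2rb, Coro1a, Ptprc, Nkg7, Cd3g, Cd3d, Cd7, Cd8a, Itgae, Ccl5 and Gzmb. Of these, 3 (Cd3d, Il2rb and Cd7) were above 5 in control arrays alone, so that their groups had to differ. All 6 fits that left out 1 array called 4 of the 11 (Nkg7, Il2rb, Ptprc and Coro1a), and the single fits called 4 without control replicate 1, 6 without control replicate 2, 4 without control replicate 3, 10 without deficient replicate 1, 5 without deficient replicate 2 and 11 without deficient replicate 3. The highest adjusted p of any of the 11 in these limma fits was 0.132. The list median was -3.17, and the mean level was 5.61 to 7.09 in deficient and 9.58 to 9.73 in control arrays. Relative to the control mean, this list stood at -4.03, -3.28 and -2.55 in deficient replicates 1, 2 and 3, an order other than that of Jchain at -1.53, -2.55 and -0.79. In control replicate 2, where Igha and Jchain were highest, the T cell list stood at -0.03. All 9 tested myeloid markers were lower by mean, with a median change of -1.07. Their mean levels were 6.61 to 7.30 in deficient and 8.12 to 8.81 in control arrays. Limma called 4 lower (Fcer1g, Tyrobp, Adgre1 and Itgax), beside 1.98% of all genes tested. Itgax was above 5 in control arrays alone and passed in 1 of 6 fits that left out 1 array (limma adjusted p up to 0.122), and Adgre1 passed in 5. Those not called were C1qb at -1.07, C1qa at -0.88, Csf1r at -0.64, Lyz2 at -0.41 and Cd14 at -0.31 (limma adjusted p = 0.197, 0.328, 0.499, 0.717 and 0.765). Among them only C1qb did not overlap between groups. Cd8b1, Cd247 and Cd2 of the T cell list, and Itgam, Cd68, C1qc, Cx3cr1 and Cd163 of the myeloid list, read 5 or less on all arrays.

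Limma called 0 of 5 tested stromal and endothelial markers, and 3 had an unadjusted p under 0.05, beside 16.9% of all genes tested. The list median was -1.07, with Vim at -1.07, Col1a2 at -1.69 and Col3a1 at -1.74 (limma adjusted p = 0.145, 0.164 and 0.232). Dcn at 0.13 and Acta2 at 0.06 went the other way (limma adjusted p = 0.895 and 0.856). Their mean levels were 7.23 to 8.01 in deficient and 8.06 to 9.09 in control arrays, and Col1a1, Pecam1, Cdh5 and Des read 5 or less throughout. Limma called 0 of the 12 epithelial markers, and 2 had an unadjusted p under 0.05, beside 16.9% of all genes tested. These were Krt18 at 0.95 and Krt19 at 0.69 (limma adjusted p = 0.229 and 0.283). By mean 9 of the 12 were higher and 3 lower (Vil1 at -0.27, Elf3 at -0.08 and Cdx2 at -0.02), with a list median of 0.16. That list stood at 0.43, 0.20 and 0.08 in deficient replicates 1, 2 and 3, and Blnk at 2.22, 1.20 and 0.50, each relative to its control mean. Other lists had this order of replicates too, B cell antigen receptor signalling at -0.52, -0.63 and -0.79 among them. The part that these lists play in the values of Igha, Jchain, Ighm, Blnk and Pigr was not tested.

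**Figure D4:**
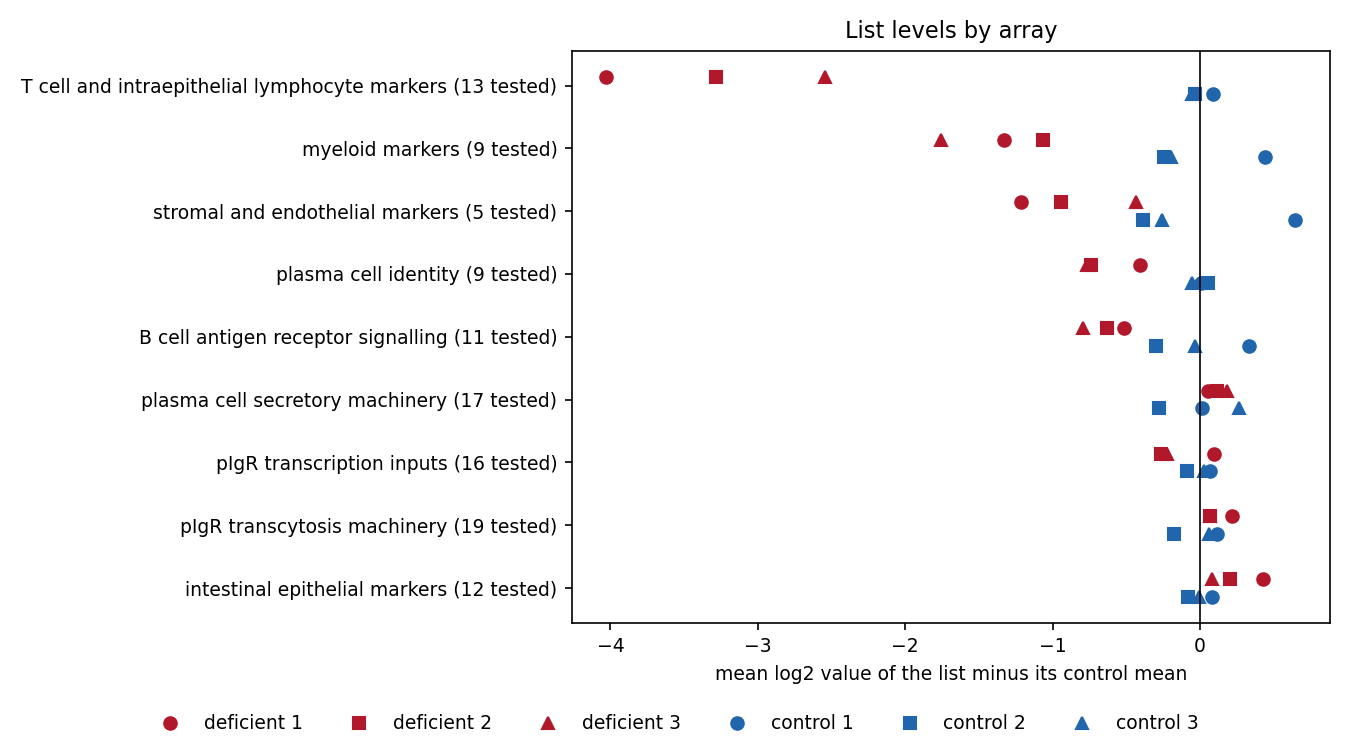
Mean log2 value of each gene list minus its control mean, by array, over the tested genes of the list. Red points are deficient and blue points control arrays, shaped by replicate number. The T cell list stands at -4.03 to -2.55 in the deficient arrays, while the lists for Pigr transcription and transcytosis lie near 0 in both groups.

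The genes whose profile over the 6 arrays came closest to each member, by root mean square difference after the control mean was subtracted, are given as a description. For Igha these were Itga4, an integrin subunit of gut-homing lymphocytes, at 0.22 (log2), then Bcl9l and Basp1 at 0.23 each. Itga4 lay under 5 in every deficient array and passed the filter through its control arrays alone, so that match rests partly on low values. For Jchain the closest genes were Gdpd3 at 0.31, Slc46a1, a folate transporter, at 0.32 and Cyp2c68 at 0.34. No gene came within 0.3 of Jchain, and 12 came within 0.3 of Igha. For Blnk they were Arf2 at 0.13, Tead1, the transcription factor of the Hippo pathway, at 0.14 and Rnf217 at 0.16, with 25 genes within 0.3. The flatter profile of Pigr had 647 genes within 0.3, led by Nkiras1, Tmem50b and 2310061I04Rik at 0.10 each. That of Ighm probe set 1427870_x_at had 1753, led by Romo1, Triqk and Fnta at 0.07 to 0.09.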

How the data were processed

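The log2 values were made and deposited by the authors, 1 per probe set and array. Per the submitters' processing notes the tools were Partek 6.5 and GCRMA, which corrects background and normalizes arrays, with their roles not stated. The log2 scale was inferred: values spanned 0.42 to 16.4, with array medians from 3.26 to 3.33. Detection calls were not used, and the number of arrays limits precision.

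The table held 45101 probe sets, of which 64 control probe sets were left out. The platform annotation gave 1 symbol to 34958, several to 932 and none to 9211. Of those with 1 symbol, 34754 matched the RefSeq gene table of GRCm38.p6, which changed 0 symbols. Each gene was represented by the brightest of its probe sets, by the mean of 6 arrays. Genes above 5 on at least 3 arrays were tested by limma 3.58.1 (R 4.3.3), using lmFit and eBayes without covariates, and p-values were adjusted by Benjamini-Hochberg over all genes tested, with a threshold of 0.05. A second fit tested every single-symbol probe set. Changes are deficient minus control. Folds given as at least raise values below 5 to 5, a level that is a filter and not a measured background. The fit was tested on simulated data.

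The members and lists were chosen with earlier results of these data known. The rule for named genes took the members, Pggt1b, each list's called genes or else its 2 tested genes with the smallest p, and for each tested member the 3 genes with the closest profile. With 3 arrays a group, the smallest two-sided p of an exact permutation test is 0.1, so the text rests on the fits. Labels number replicates 1 to 3 in both groups. Deviations from the group means correlated at 0.05, -0.29 and 0.00 over genes for replicates 1, 2 and 3, so the numbers were not taken as pairs. Alternatives changed the moderation, array weights, filter, normalization, choice of probe sets and use of a replicate block, or left out an array.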

Additional observations from a re-analysis of the deposited data

How the results depend on the processing

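Among the member genes, 0 were called in the alternatives, except that 1, Ighm, was called in the fit of every probe set and in that without designs ending in _x_at and _s_at. The Igha, Jchain, Blnk and Pigr changes kept their direction and stayed uncalled in all 17 alternatives, from -1.29 to -0.70, -2.04 to -1.16, 0.85 to 1.71 and -0.85 to -0.39, with limma adjusted p of 0.177 to 0.481, 0.092 to 0.422, 0.059 to 0.422 and 0.0965 to 0.577. The Ighm change turned to -2.19 (limma adjusted p = 0.00641) where another probe set represented the gene, and lay between -0.11 and 0.26 when 1 array was left out, with -0.04 when this was deficient replicate 3. Ighm had no value above 6 or as a mean of its probe sets, since it then missed the filter. The replicate block left 0 members called as genes and 141 genes called in all. In the fit of every probe set the Ighm set 1427329_a_at had an adjusted p of 0.0571 with the replicate block, and of 0.0106 to 0.0555 when 1 array was left out. Genes called over the whole table numbered 186, and 293 with array weights, 85 without a filter, 117 with probe sets averaged and 93 to 239 when 1 array was left out. The median change of all genes moved from -0.04 to 0.03 with a common median and 0.04 with quantile normalization. Beyond the change of probe set or array itself, the cause was not tested. Probe sets near 5 are limited by their distance from the low values, and 12 of the 22 member probe sets lay at or below 5 throughout.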
